A study of Drosophila melanogaster with 2 samples.

Results

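Axon guidance genes encode the cues that steer growing nerve fibres and the receptors that read them, and neural adhesion genes encode the surface proteins by which fibres of a lineage hold together and choose partners. Cues such as Slit, the Netrins and the semaphorins are secreted or held on a cell surface, and they act through Robo, Frazzled, Unc-5 and plexin receptors on the growth cone. In the larval fly brain the neurons born from 1 neuroblast (neural stem cell) send their fibres out as a bundle, and several of these genes are also used in glia, muscle and epithelia. The set described here was a list of 37 genes, picked by symbol: 6 ligands, 10 receptors of cues, 4 receptor tyrosine phosphatases, 1 regulator of Robo sorting and 16 adhesion genes. All 37 were found among the 14284 genes of the count tables, and all 37 were among the 9142 measured genes, meaning that their counts in the libraries summed to at least 20.

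The study compared brat RNAi with control larval brains, 1 polyA RNA-seq library each. Brat is a translational repressor whose loss turns type II neuroblast lineages into tumours. The brat RNAi library came from the cross with an RNAi line from the VDRC collection, and the control library came from the same cross without it. All animals of both groups carried UAS-dicer2, wor-Gal4, asense-Gal4 (as the labels name the drivers), a membrane GFP (UAS-CD8::GFP) and tub-Gal80ts, a ubiquitous temperature-sensitive block on Gal4. They were raised at 18 °C and moved to 29 °C by the third instar, and brains were taken 24 h after the move. Type II neuroblasts and their 24 h progeny were then sorted by fluorescence. The drivers therefore set which cells were green and, in the RNAi cross, which cells made the hairpin, and the labels do not say how many brains were pooled. Type II neuroblasts are known for lacking Asense, and the labels do not say how drivers with these names set them apart from other neuroblasts, so which cells were green is not settled by the labels.

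Gene counts summed to 15236504 in the brat RNAi library and 16566265 in the control library. Counts were divided by size factors of 0.913 (brat RNAi) and 1.09 (control), so equal raw counts mean a higher normalised count in brat RNAi. Each ratio below is the log2 ratio of normalised counts, brat RNAi over control, and the range in parentheses is its 95% exact (Clopper-Pearson) interval, an error of counting alone. No test was possible on 1 library against 1, so each difference describes these libraries and has no replicate check. The targeted gene brat had 6911 normalised counts in brat RNAi and 11152 in the control, at -0.69 (-0.73 to -0.65). The 8 neuroblast markers looked at, brat among them, were all measured and had a median log2 ratio of 0.45, with 6 above 0 and ase (-0.27) and brat below. The asense gene, ase, had 1353 normalised counts in brat RNAi and 1635 in the control. The median log2 ratio of the 9 neuron markers was 0.00, with 5 above 0 and 4 below, from -0.99 (Hey) to 0.43 (brp). Their summed normalised counts were 17902 in brat RNAi and 17066 in the control. Of these, pros alone had 7512 in brat RNAi and 6610 in the control. The 7 type II and intermediate progenitor markers had a median log2 ratio of 0.16, with 5 above 0 and 2 below. In sorted bulk RNA, fewer cells of a type and less RNA per cell cannot be told apart.

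The guidance and adhesion genes lay close to equal in the libraries. None of the 37 was at least 2-fold apart with an interval excluding 0, against 5.63% of all measured genes. The 37 are not matched to those genes in level or in transcript length. Their median normalised count, averaged over the libraries, was 1168, against 469 for measured genes with a known length. At a threshold of 1.5-fold, only Ten-m passed, higher in brat RNAi, against 5.93% of measured genes higher and 8.32% lower by that rule. Scaled by total counts, Ten-m fell short of it and 3 others (Fas3, drl and comm) passed as lower. No share of all measured genes is given under that scaling, so those 3 are not a result about the set. The median log2 ratio of the 37 was 0.17, against 0.00 over all measured genes, with a range from -0.50 (comm) to 0.64 (Ten-m). Scaling by total counts lowered the median of all genes by 0.14 on the log2 scale and put the median of the 37 at 0.03, with 21 of them above 0 in place of 28. The interval lay above 0 for 22 genes and below 0 for 7, against 30.7% and 24.3% of all measured genes. Together the 37 genes took 0.403% of gene counts in brat RNAi and 0.399% in the control. In the authors' deposited table the adjusted p was 1 for all 37, and 0.395% of all its genes were under 0.05.

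Transcript length ran alongside these ratios. The 37 genes are long, with a median transcript of 5.17 kb in the reference annotation, against 2.03 kb for all measured genes, and 34 of them fell in the longest 3 deciles. Over all measured genes the median log2 ratio was -0.24 in the shortest decile and 0.32 in the longest. The 34 long members had a median of 0.22, and the 2728 measured genes of those deciles also had a median of 0.22. Intervals lay above 0 for 64.7% of those members and 55.4% of those genes. They lay below 0 for 11.8% of the members and 7.62% of the genes. By the 1.5-fold rule 1 of the 34 members was higher and 0 lower, against 11.7% and 3.34% of those genes. In the longest decile all 20 members were above 0, as were 83.6% of the 910 genes there, and the medians were 0.27 for the members and 0.32 for all. That direction turned for some of the 20 when counts were scaled by total: lea, rst, robo, Nrg, Dscam, NetB and robo3 came out below 0, robo3 the lowest at -0.12. The 9 members below 0 all had transcripts of 4.67 kb or shorter, the longest being that of the adhesion gene Con. Across the 37 genes, which share the same libraries, Spearman's rank correlation between length and ratio was 0.58, and across 9092 measured genes it was 0.40.

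**Figure D1:**
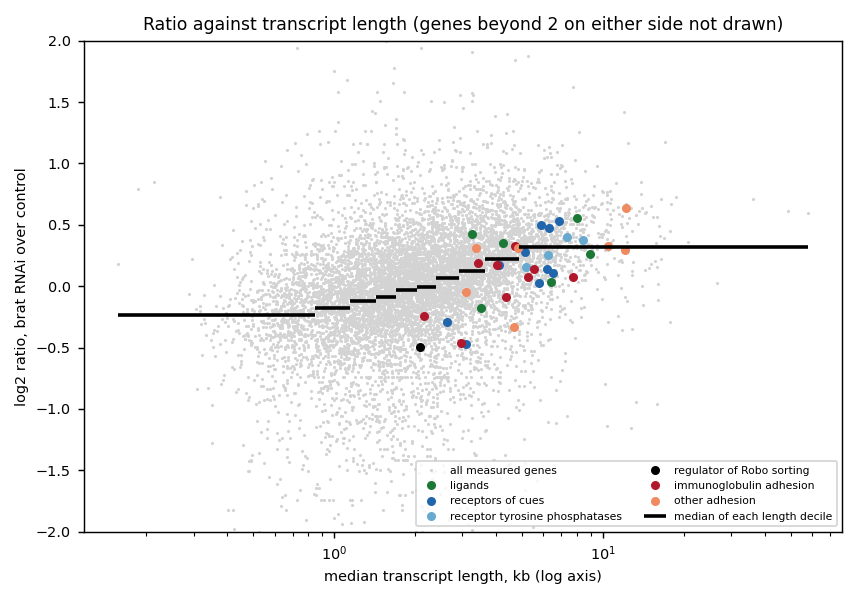
Log2 ratio of normalised counts (vertical) against median transcript length in kb (horizontal, log axis) for all measured genes in grey and the 37 genes in colour by role, with a black bar at the median of each length decile. The bars climb from -0.24 to 0.32, and the coloured points lie around the bars of the longer deciles; 134 genes beyond 2 on either side are not drawn.

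Subtracting the median of genes of like length, and then of like level, lowered the ratios of most members. Like here means the same decile. The longest length decile, with 20 members, ran from 4.875 to 57.9 kb, so a trend with length inside it is not removed. The corrected ratio had a median of -0.15 over the 37 genes, with 13 above 0 and 24 below. Its interval lay above 0 for 6 genes (NetA, Ten-m, Sema-1a, plexB, trn and plexA) and below 0 for 19, against 24.8% and 23.8% of all measured genes. Because it removes whatever genes of like length share, it would also remove a real difference common to long genes. The words after correction mark such values below.

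**Figure D2:**
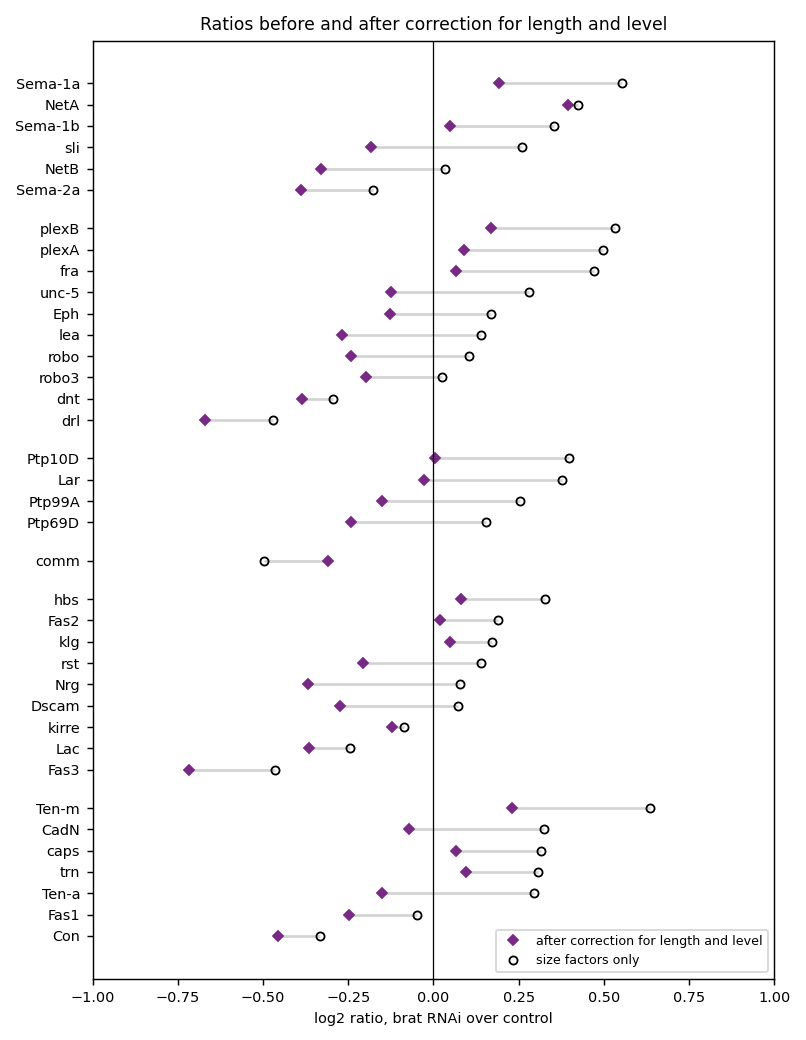
Log2 ratio of each gene (horizontal), brat RNAi over control, before (open circles) and after (diamonds) subtracting the medians of genes of like length and level, with genes grouped by role. Nearly all diamonds lie left of their circles, and Fas3 and drl end farthest left at -0.72 and -0.67.

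The genes differed far more in level than between libraries. Levels are compared here as normalised counts per kb of transcript. The highest was Lac (Lachesin, a membrane-anchored protein of septate junctions), with 2007 per kb in brat RNAi and 2377 in the control. It was followed by Nrg (Neuroglian, the fly L1 adhesion protein), with 1490 per kb in brat RNAi and 1412 in the control. Then came Fas3, a homophilic immunoglobulin protein, with 1007 per kb in brat RNAi and 1391 in the control. The lowest was kirre, with 23.1 per kb in brat RNAi and 24.5 in the control. Averaged over the libraries, 18 of the 37 lay above the median of all measured genes, 236 per kb, and 19 below it. The most abundant transcripts of the set were thus those of adhesion proteins, and among the cues the highest level was that of Sema-2a, at 731 per kb in brat RNAi and 828 in the control.

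**Figure D3:**
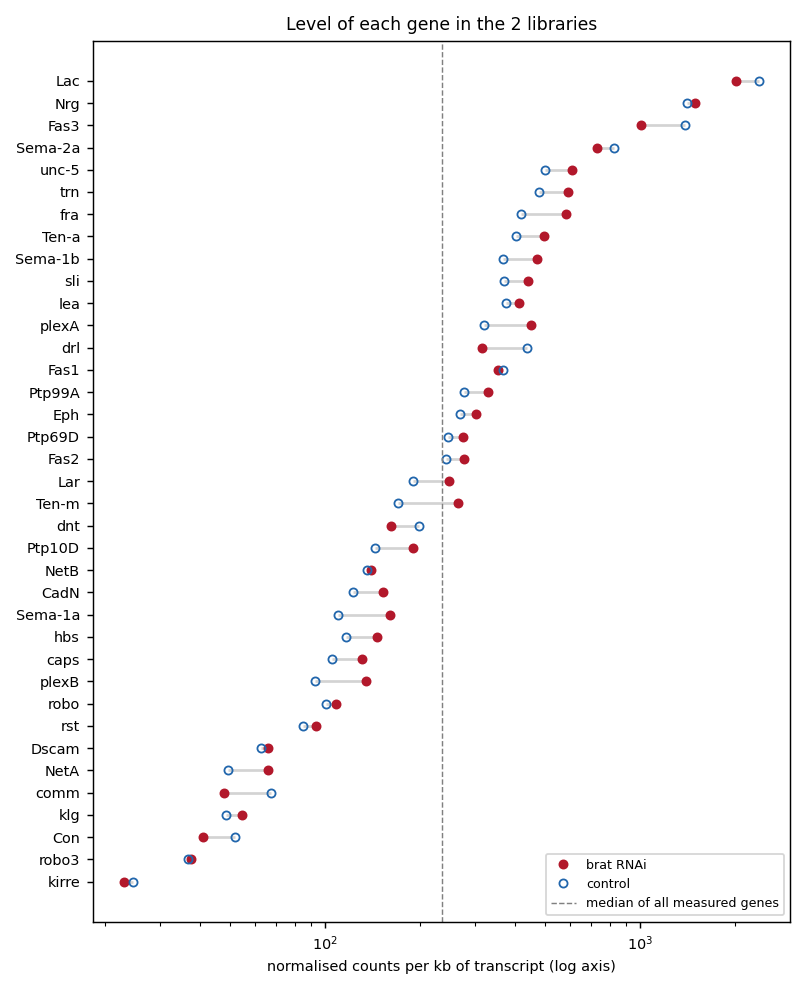
Normalised counts per kb of transcript (horizontal, log axis) for each gene in brat RNAi (filled red) and control (open blue), ordered by mean level, with the median of all measured genes as a dashed line. Levels span kirre, at 23.1 in brat RNAi and 24.5 in the control, to Lac, at 2007 in brat RNAi and 2377 in the control, and the 2 points of each gene lie close together.

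Of the 6 ligands, 4 had intervals above 0 and 1 below. Slit (sli), the secreted repellent of the midline, had 3967 normalised counts in brat RNAi and 3311 in the control, at 0.26 (0.19 to 0.33). Its raw counts were nearly the same, 3623 in brat RNAi and 3625 in the control, so its ratio rests on the scaling: it was 0.12 scaled by total counts and -0.18 after correction. The Netrins, secreted cues that attract or repel, had different ratios. NetA had 215 normalised counts in brat RNAi and 160 in the control, at 0.43 (0.12 to 0.73), on 196 raw counts in brat RNAi and 175 in the control. NetB had 895 normalised counts in brat RNAi and 874 in the control, at 0.03 (-0.10 to 0.17). NetA remained above 0 after correction at 0.40 (0.09 to 0.70), while NetB was at -0.33. Scaled by total counts, NetA was at 0.28 and its interval held 0 (-0.02 to 0.59).

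Sema-1a, a transmembrane semaphorin that serves as a cue and as a receptor, had 1283 normalised counts in brat RNAi and 874 in the control. Its ratio of 0.55 (0.43 to 0.68) was the highest of any ligand and lay just under the 1.5-fold threshold, at 1.47-fold. Sema-1b, also transmembrane, had 2004 normalised counts in brat RNAi and 1568 in the control, at 0.35 (0.26 to 0.45). The secreted Sema-2a was lower in brat RNAi, with 2571 normalised counts there and 2910 in the control, at -0.18 (-0.26 to -0.10). After correction Sema-1a was at 0.19, Sema-1b at 0.05 and Sema-2a at -0.39. Of the other semaphorins, named after their values were seen, the transmembrane Sema-5c was at 0.11 (-0.10 to 0.32) and the secreted Sema-2b at -0.07 (-0.34 to 0.19).

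Among the 10 receptors of cues, the interval lay above 0 for 6 and below 0 for 2. The plexins, which bind semaphorins, were the highest. plexA, known to bind Sema-1a, had 2655 normalised counts in brat RNAi and 1882 in the control, at 0.50 (0.41 to 0.58). plexB, known to bind Sema-2a, had 925 normalised counts in brat RNAi and 639 in the control, at 0.53 (0.39 to 0.68). Both stayed above 0 after correction, plexA at 0.09 (0.01 to 0.18) and plexB at 0.17 (0.02 to 0.32). The Netrin receptor Frazzled (fra), the fly DCC, had 3662 normalised counts in brat RNAi and 2642 in the control, at 0.47 (0.40 to 0.54), and 0.07 after correction. unc-5, the Netrin receptor of repulsion, had 3111 normalised counts in brat RNAi and 2561 in the control, at 0.28 (0.20 to 0.36), and -0.12 after correction.

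The Robo receptors of Slit had ratios between 0.03 and 0.14. lea, now called robo2, had 2559 normalised counts in brat RNAi and 2325 in the control, at 0.14 (0.06 to 0.22), and -0.0029 with total scaling. robo, now robo1, had 709 normalised counts in brat RNAi and 659 in the control, at 0.11 (-0.05 to 0.26). robo3 had 216 normalised counts in brat RNAi and 212 in the control, at 0.03 (-0.26 to 0.31). After correction all of them were below 0, lea at -0.27 (-0.35 to -0.19), robo at -0.24 (-0.40 to -0.09) and robo3 at -0.20 (-0.48 to 0.08). Per kb, lea was the most abundant of the Robo genes, with 412 in brat RNAi and 375 in the control. robo had 108 per kb in brat RNAi and 101 in the control, and robo3 had 37.4 in brat RNAi and 36.7 in the control. Commissureless (comm), which keeps Robo off the growth cone surface by sorting it away inside the cell, had 99.6 normalised counts in brat RNAi and 141 in the control. Its ratio of -0.50 (-0.89 to -0.11), on 91 raw counts in brat RNAi and 154 in the control, was the lowest of the 37, and after correction its interval held 0 (-0.31, -0.70 to 0.07).

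Both Ryk-type receptors were lower in brat RNAi. Derailed (drl), an atypical receptor kinase that reads Wnt5, had 977 normalised counts in brat RNAi and 1353 in the control, at -0.47 (-0.59 to -0.35). Its relative doughnut (dnt) had 425 normalised counts in brat RNAi and 522 in the control, at -0.30 (-0.49 to -0.11). They remained below 0 after correction, drl at -0.67 (-0.79 to -0.55) and dnt at -0.39 (-0.58 to -0.20). Wnt5 itself, named after its value was seen, was at 0.11 (0.01 to 0.21), but at -0.03 scaled by total counts and -0.18 after correction. The ephrin receptor Eph had 1236 normalised counts in brat RNAi and 1100 in the control, at 0.17 (0.05 to 0.29), and -0.13 after correction. Scaled by total counts, Eph was at 0.03 and its interval held 0 (-0.09 to 0.15). Its ligand Ephrin, also named after its value was seen, was at 0.38 (0.19 to 0.57), and 0.28 after correction.

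All 4 receptor tyrosine phosphatases, which act in motor and central axons, had intervals above 0. They fall in the longest decile of transcript length, where 66.3% of the 910 measured genes also had intervals above 0. Ptp10D had 1396 normalised counts in brat RNAi and 1059 in the control, at 0.40 (0.28 to 0.51). Lar had 2081 normalised counts in brat RNAi and 1603 in the control, at 0.38 (0.28 to 0.47). Ptp99A followed at 0.25 (0.16 to 0.35) and Ptp69D at 0.15 (0.04 to 0.26). Scaled by total counts, Ptp69D was at 0.01 and its interval held 0 (-0.10 to 0.12). After correction Ptp10D was at 0.00, Lar at -0.03, Ptp99A at -0.15 and Ptp69D at -0.24.

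**Figure D4:**
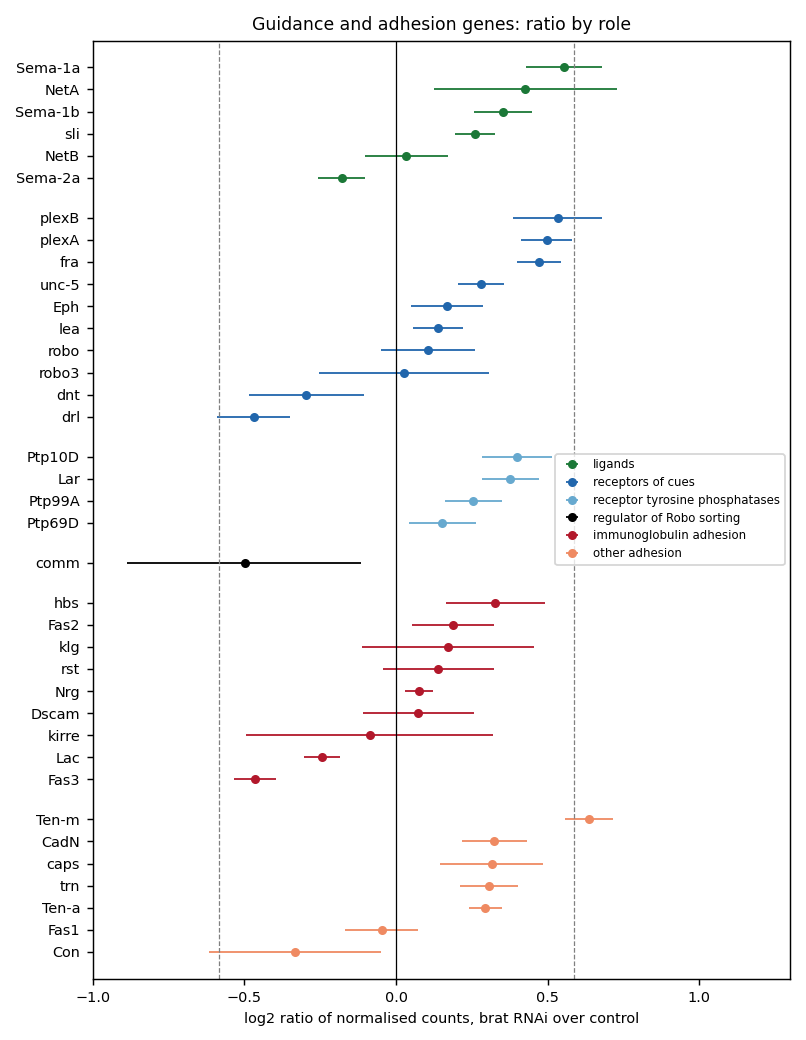
Log2 ratio of normalised counts, brat RNAi over control, for the 37 genes grouped by role, with bars for the 95% counting interval, a solid line at 0 and dashed lines at 1.5-fold. Ten-m at 0.64 is the one point beyond a dashed line, and comm, drl and Fas3 lie farthest to the left.

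The 9 adhesion genes of the immunoglobulin superfamily had a median ratio of 0.08 (-0.06 scaled by total counts), with 3 intervals above 0, 2 below and 4 holding 0. Fas3 was the lowest of these, with 2974 normalised counts in brat RNAi and 4106 in the control, at -0.47 (-0.53 to -0.40). Lac was also lower, with 4327 normalised counts in brat RNAi and 5125 in the control, at -0.24 (-0.30 to -0.19). Both remained below 0 after correction, Fas3 at -0.72 (-0.79 to -0.65) and Lac at -0.36 (-0.42 to -0.30). Fas3 and Lac are also made in epithelia or glia. The 5 glial markers summed to 10601 normalised counts in brat RNAi and 10221 in the control (2 of 5 above 0). Of these, Eaat1 alone had 6778 in brat RNAi and 5982 in the control. The 4 tracheal or epithelial markers summed to 6656 in brat RNAi and 4463 in the control (3 of 4 above 0). Most of that sum was shg, with 5489 in brat RNAi and 3420 in the control. The others were btl at -0.56, trh at 0.04 and uif at 0.22. None of those markers had a count of 0 in either library, and the part of such cells in these ratios was not tested.

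Nrg had 7817 normalised counts in brat RNAi and 7411 in the control, and its narrow interval put it just above 0 at 0.08 (0.03 to 0.12). It came out at -0.06 with total scaling and at -0.37 after correction. Fas2, the fly relative of NCAM, had 950 normalised counts in brat RNAi and 834 in the control, at 0.19 (0.05 to 0.32), and 0.02 after correction. Scaled by total counts, Fas2 was at 0.05 and its interval held 0 (-0.09 to 0.18). Dscam, known for its many alternative exons, was at 0.07 (-0.11 to 0.26), a count over all its isoforms, of which 75 transcripts are annotated. Klingon (klg), a homophilic protein, was at 0.17 (-0.11 to 0.46). After correction Dscam was at -0.27 (-0.46 to -0.09) and klg at 0.05 (-0.24 to 0.33).

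The recognition proteins kirre, rst and hbs, known from muscle fusion and the eye, spanned 0. hbs had 688 normalised counts in brat RNAi and 548 in the control, at 0.33 (0.16 to 0.49). rst had 519 normalised counts in brat RNAi and 471 in the control, at 0.14 (-0.04 to 0.32). kirre had 101 normalised counts in brat RNAi and 107 in the control, at -0.09 (-0.50 to 0.32), on 92 raw counts in brat RNAi and 117 in the control; a difference was not detectable at this depth. After correction hbs was at 0.08 (-0.08 to 0.24), rst at -0.21 (-0.39 to -0.03) and kirre at -0.12 (-0.53 to 0.28). Beside them, all 7 muscle markers were lower in brat RNAi, with summed normalised counts of 184 there and 463 in the control. The 6 photoreceptor and eye disc markers had a median log2 ratio of 0.06, with 4 above 0 and 2 below. They summed to 4672 normalised counts in brat RNAi and 4025 in the control. The part of muscle or eye cells in the ratios of genes that they also use was not tested.

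The other 7 adhesion genes included the highest ratio of the set. Ten-m, a teneurin that matches partner neurons through homophilic contact, had 3213 normalised counts in brat RNAi and 2067 in the control, a 1.55-fold difference at 0.64 (0.56 to 0.72). It stayed above 0 after correction at 0.23 (0.15 to 0.31) and with total scaling at 0.50. Ten-a, the other teneurin, had 5951 normalised counts in brat RNAi and 4854 in the control, at 0.29 (0.24 to 0.35), and -0.15 after correction. N-cadherin (CadN) had 1595 normalised counts in brat RNAi and 1274 in the control, at 0.32 (0.22 to 0.43), and -0.07 after correction.

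The leucine-rich repeat proteins capricious (caps) and tartan (trn) were at 0.31 (0.14 to 0.49) and 0.31 (0.21 to 0.40). After correction caps was at 0.07 and trn at 0.10. Connectin (Con), also with leucine-rich repeats, was lower, with 192 normalised counts in brat RNAi and 241 in the control, at -0.33 (-0.62 to -0.05), and at -0.46 after correction. Fas1, a homophilic protein of fasciclin domains, had 1098 normalised counts in brat RNAi and 1135 in the control, at -0.05 (-0.17 to 0.07), and at -0.25 (-0.37 to -0.13) after correction. Scaled by total counts, Fas1 was at -0.19 (-0.31 to -0.07).

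Differences between the ratios of 2 genes do not depend on the scaling of the libraries. For this reason 19 pairs, mostly of the same family, were compared in that way, with an exact conditional 95% interval for counting error. The differences still hold any trend with length or level between the 2 genes, and intervals were not worked out for them after correction. The interval of the difference excluded 0 for 5 pairs and held 0 for 14. Such a share was not worked out for other pairs of genes, so this count is not a result about these families. The ratio of NetA exceeded that of NetB by 0.39 (0.06 to 0.73) and that of Ten-m exceeded Ten-a by 0.34 (0.25 to 0.44). Sema-1a exceeded Sema-1b by 0.20 (0.04 to 0.36). After correction these differences were 0.73, 0.38 and 0.14, in that order. Among the phosphatases, Ptp10D exceeded Ptp69D by 0.25 (0.08 to 0.41), also 0.25 after correction. Lar exceeded Ptp69D by 0.22 (0.08 to 0.37), and by 0.21 after correction. Both of these share Ptp69D and are not separate results. plexA and plexB differed by -0.04 (-0.21 to 0.13), and caps and trn by 0.01 (-0.19 to 0.20). For drl and dnt the difference was -0.17 (-0.40 to 0.05), and -0.28 after correction. For hbs and rst it was 0.19 (-0.06 to 0.44), and 0.29 after correction. For robo and lea it was -0.03 (-0.21 to 0.14), and 0.03 after correction.

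**Figure D5:**
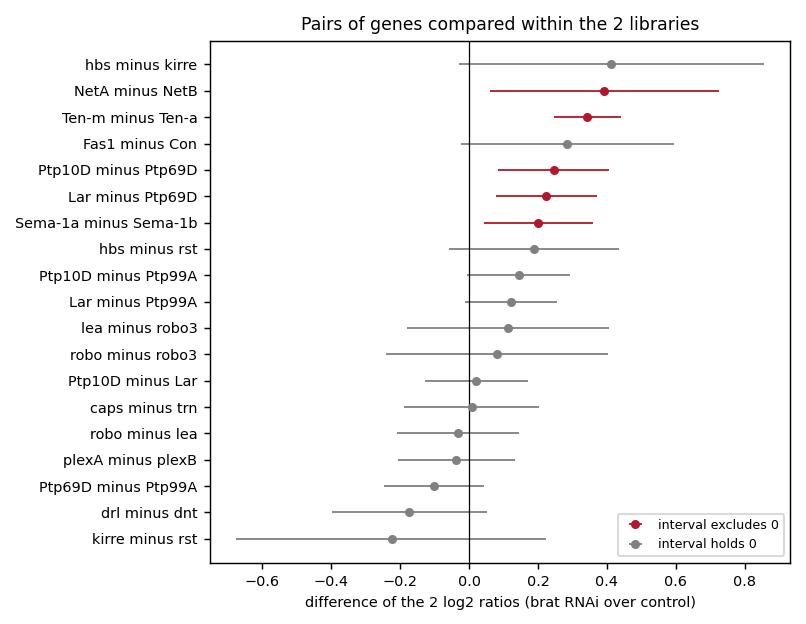
Difference of the log2 ratios (brat RNAi over control) of 2 genes, the first named minus the second, for 19 pairs, with 95% counting intervals; red marks intervals that exclude 0. Ten-m minus Ten-a at 0.34 has the narrowest interval, and the pairs with kirre have the widest.

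Exons of 8 members (Ten-m, plexB, Lar, Ten-a, unc-5, Ptp99A, lea and Dscam) overlap another gene in the current annotation, on the opposite strand for 5 of them. The strand setting of the counting is not given in the sources used here, so these 8 values are uncertain by whatever reads such neighbours share.

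Other guidance and adhesion genes were looked at as a list of 73 that holds further cues, co-receptors, cytoskeletal effectors and adhesion proteins, of which 72 were matched and all 72 measured. At 1.5-fold, 11 were higher and 3 lower in brat RNAi, against 5.93% and 8.32% of measured genes, and the median ratio was 0.16. In the longest 3 length deciles, 11.7% of all measured genes were higher and 3.34% lower by that rule. Scaled by total counts, 4 of the list were higher and 5 lower. Like the 37, the genes of this list are long, at a median of 4.73 kb. After correction 3 were higher, 3 lower and the median was -0.08. Shares of all measured genes under total scaling or after correction are not given here, so those counts are not a result about the list. Src64B, a Src-family kinase, had 3963 normalised counts in brat RNAi and 1833 in the control, a 2.16-fold difference at 1.11 (1.03 to 1.19), and was the one gene of the list at least 2-fold apart; it was under 2-fold at 0.97 scaled by total counts and 0.96 after correction. sns, the partner of kirre and rst in muscle fusion, was at 0.94 (0.78 to 1.10) with 900 normalised counts in brat RNAi and 469 in the control. Liprin-alpha, which binds Lar, was at 0.77 (0.67 to 0.87), and the E-cadherin gene shg, also one of the epithelial markers above, was at 0.68 (0.62 to 0.74). The lower genes were the receptor Toll-6 at -0.60 (-0.92 to -0.29), the adhesion gene CG16857, now borderless, at -0.63 (-1.22 to -0.05), and the tetraspanin lbm at -0.72 (-1.29 to -0.17), the last 2 on under 100 counts in each library. After correction sns was at 0.59, Liprin-alpha at 0.47, shg at 0.24 and Toll-6 at -0.83, while the intervals of CG16857 (-0.43, -1.02 to 0.14) and lbm (-0.36, -0.93 to 0.19) held 0.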

How the data were processed

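The authors deposited raw counts of read pairs per gene for both libraries and a table that sets them against each other. TopHat 1.4.1, BWA 0.6.1, DESeq 1.8.3 and HTSeq are named in the submitters' processing notes, with no role given; per the file headers the gene identifiers follow annotation release 5.44. Per the file headers, that deposited table holds base means (a signal, counts divided by size factors), log2 fold changes, which its base means show to be control over brat RNAi, and adjusted p-values. Turned round, those log2 values for the 37 genes equalled the ratios computed here to rounding error.

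Here, counts were divided by median-of-ratios size factors. Lines for pairs assigned to no single gene, 27.2% of the brat RNAi table and 22.7% of the control table, stayed out. Intervals cover counting error only, since 1 library per group gives no measure of spread between libraries. Read pairs are not independent molecules, so the intervals may understate even that error. Code was tested on simulated counts. Symbols are those of the authors' table. Of the members, 33 were matched to the reference (BDGP6) by identifier and 4 by symbol, for median transcript lengths; as the release differs, no coordinates are given. The correction subtracts the median ratio by decile of length, then of level. edgeR 4.0.16 gave TMM factors, one of the alternatives. Members at least 1.5-fold apart, members of gene families and the most abundant of each role were given in full; of the longer list, up to 6 genes at least 1.5-fold apart in each direction were named, of which 2 are not reported here. Members and lists were chosen with earlier results of these data known. Python 3.11.15 and SciPy 1.17.1 were used.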

Additional observations from a re-analysis of the deposited data

Results flagged for a closer look

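Read pairs that fell in no annotated feature made up 26.6% of the brat RNAi table, more than the 22.0% of the control table. No ratio above uses them, and a single library on each side cannot show how far such shares vary between libraries.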

How the results depend on the processing

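TMM scaling, no minimum count, a minimum mean normalised count of 100, a pseudocount of 1 and a 99% interval left each member's ratio within its counting interval, kept each total count of genes past a threshold within 1.5 times, and gave no member at least 2-fold apart; of the longer list, 10 were higher and 1 lower with the minimum of 100, in place of 11 and 3. Total count scaling gave a median of 0.0307 for the 37 genes, 3 members at least 1.5-fold apart (all lower) in place of 1, and 9 genes of the longer list (4 higher, 5 lower) in place of 14. Of the members whose intervals had lain above 0, it turned Nrg to -0.0638 and lea to -0.0029. The correction for length and level turned the median to -0.15, gave 2 members at least 1.5-fold apart (Fas3 and drl, both lower) and 6 genes of the longer list. It turned 10 members whose intervals had lain above 0: CadN to -0.0705, Eph to -0.13, Lar to -0.0286, Nrg to -0.37, Ptp69D to -0.24, Ptp99A to -0.15, Ten-a to -0.15, lea to -0.27, sli to -0.18 and unc-5 to -0.12. No member was at least 2-fold apart under either. Shares of all measured genes at least 1.5-fold apart are not given for total count scaling or the correction, so those counts are not results about the lists. No paired analysis was possible because each group is 1 library. Depth limits the scarce members most: kirre, with 92 counts in brat RNAi and 117 in the control, has an interval from -0.50 to 0.32.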
